A study of Macaca fascicularis with 32 samples.

Results

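The genes described here encode the dopamine receptors D1 (DRD1), D2 (DRD2) and D3 (DRD3) and the adenosine A2A receptor (ADORA2A), 4 of the 22316 genes in the deposited count matrices. They were chosen by gene symbol, and each symbol matched 1 row: DRD1 is ENSMFAG00000015744, DRD2 is ENSMFAG00000043416, DRD3 is ENSMFAG00000037060 and ADORA2A is ENSMFAG00000031796. Their level and the share of nuclei holding them were read in each neuron class of 3 brain regions of cynomolgus macaques: the putamen (PUT), the caudate ("Caudal nucleus" in the labels, here CN) and the substantia nigra (SN). In the PD group, per the study's title, Parkinson's disease was modelled with an adeno-associated virus for α-synuclein and with poly(ADP-ribose). The labels call the other group CT and give no agent, age, virus promoter or injection site for either. Of the 32 samples listed, CT has 8 in PUT, 8 in CN and 4 in SN, and PD has 4 in every region. Nothing says which samples came from the same animal.

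The samples of a region and treatment were pooled in 1 matrix, which does not say which barcode came from which sample. The 6 matrices therefore stand for 6 libraries, differences could not be checked against replicates, and no test was made. Treatment cannot be told apart from the animals or the library, and which matrix is which was known from the file names alone. After filtering, 52685 of 56659 barcodes were retained as nuclei, from libraries of 18692617 to 36723856 UMIs (unique molecular identifiers, 1 for each captured RNA molecule). Of these nuclei 18451 were neurons. Pairs of libraries shared 14 to 38 barcode sequences. Levels are counts per 1000000 UMIs of a class (CPM). Every interval below is a 95% interval that covers counting error only.

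Dopamine receptors are G protein coupled receptors. D1 couples to stimulatory G proteins and raises cyclic AMP, whereas D2 and D3 couple to inhibitory G proteins and lower it. In the striatum, formed by the putamen and caudate, spiny projection neurons (SPNs) of the direct pathway are known for D1, and those of the indirect pathway for D2 together with A2A, which raises cyclic AMP and opposes D2. Midbrain dopamine neurons carry D2 as an autoreceptor, and D3 is known for the ventral striatum.

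SPNs were divided without the 4 receptor genes. TAC1-type SPNs were named by the mean of markers known from the direct pathway (TAC1, PDYN, ISL1, EBF1, SLC35D3 and CHRM4). PENK-type SPNs were named by those known from the indirect pathway (PENK and SP9). Class names rest on markers alone and mean "like" throughout. The transcription factor gene EBF1 stood at 190, 175, 160 and 95.9 CPM in TAC1-type SPNs of PUT CT, PUT PD, CN CT, then CN PD, against 3.40, 5.94, 6.52 and 3.97 in PENK-type SPNs. SP9, a transcription factor gene, stood at 17.7, 14.8, 14.5 and 9.41 CPM in PENK-type SPNs, against 2.13, 0.612, 1.84 and 0.603 in TAC1-type SPNs. PENK, the enkephalin precursor gene, was a weaker divider. It stood at 102, 65.2, 117 and 110 CPM in PENK-type SPNs and at 131, 37.2, 142 and 82.6 in oligodendrocytes. TAC1 stood at 158, 135, 146 and 111.5 CPM in TAC1-type SPNs, against 45.8, 28.0, 35.8 and 22.0 in PENK-type SPNs. It was higher in eccentric SPNs, a smaller class described below, at 283, 194, 281 and 153. Oligodendrocytes held it at 136, 53.4, 110 and 63.1. Not all TAC1-type markers were carried in every library: CHRM4 had at most 6 UMIs in a library and 0 in CN PD, and SLC35D3 had 1 in PUT PD. Nigral dopaminergic nuclei held the dopamine transporter gene SLC6A3 at 699 (CT) and 686 (PD) CPM and the tyrosine hydroxylase gene TH at 54.9 and 52.8.

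RNA free in the nuclei suspension gives UMIs in nuclei that do not make it. Oligodendrocytes were taken as the reference for that level, and whether they make any of these receptors themselves was not tested. It can be too high a reference for deeper nuclei, since PENK stood at 42.4, 19.0, 42.1 and 30.3 CPM in TAC1-type SPNs, below the oligodendrocyte level in every library. Oligodendrocytes were shallower than SPNs, with median depths of 1048, 1208, 844 and 1128 UMIs in PUT CT, PUT PD, CN CT, then CN PD. TAC1-type SPNs had 4811, 4360, 4169 and 5448, and PENK-type SPNs 4605, 4361, 4170 and 5522. Shares of nuclei are therefore also given after each nucleus was thinned at random to 1000 UMIs. Thinning left out 0 to 6 SPN nuclei of a class and library, but 1796, 324, 1363 and 1193 oligodendrocytes. Levels of different genes are not compared, since the gene lengths of the annotation used are not known here.

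The receptors were captured to very different extents. Over all retained nuclei there were 24389 UMIs of DRD2, 6286 of DRD3, 3276 of ADORA2A and only 177 of DRD1. PENK-type SPNs held 71.7% of the DRD2 UMIs and 67.8% of the ADORA2A UMIs. TAC1-type SPNs held 71.8% of the DRD1 UMIs, while DRD3 was divided, with 50.8% in TAC1-type and 35.5% in PENK-type SPNs. Dopaminergic neurons, 628 of the 52685 nuclei, held 10.9% of the DRD2 UMIs.

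**Figure D1:**
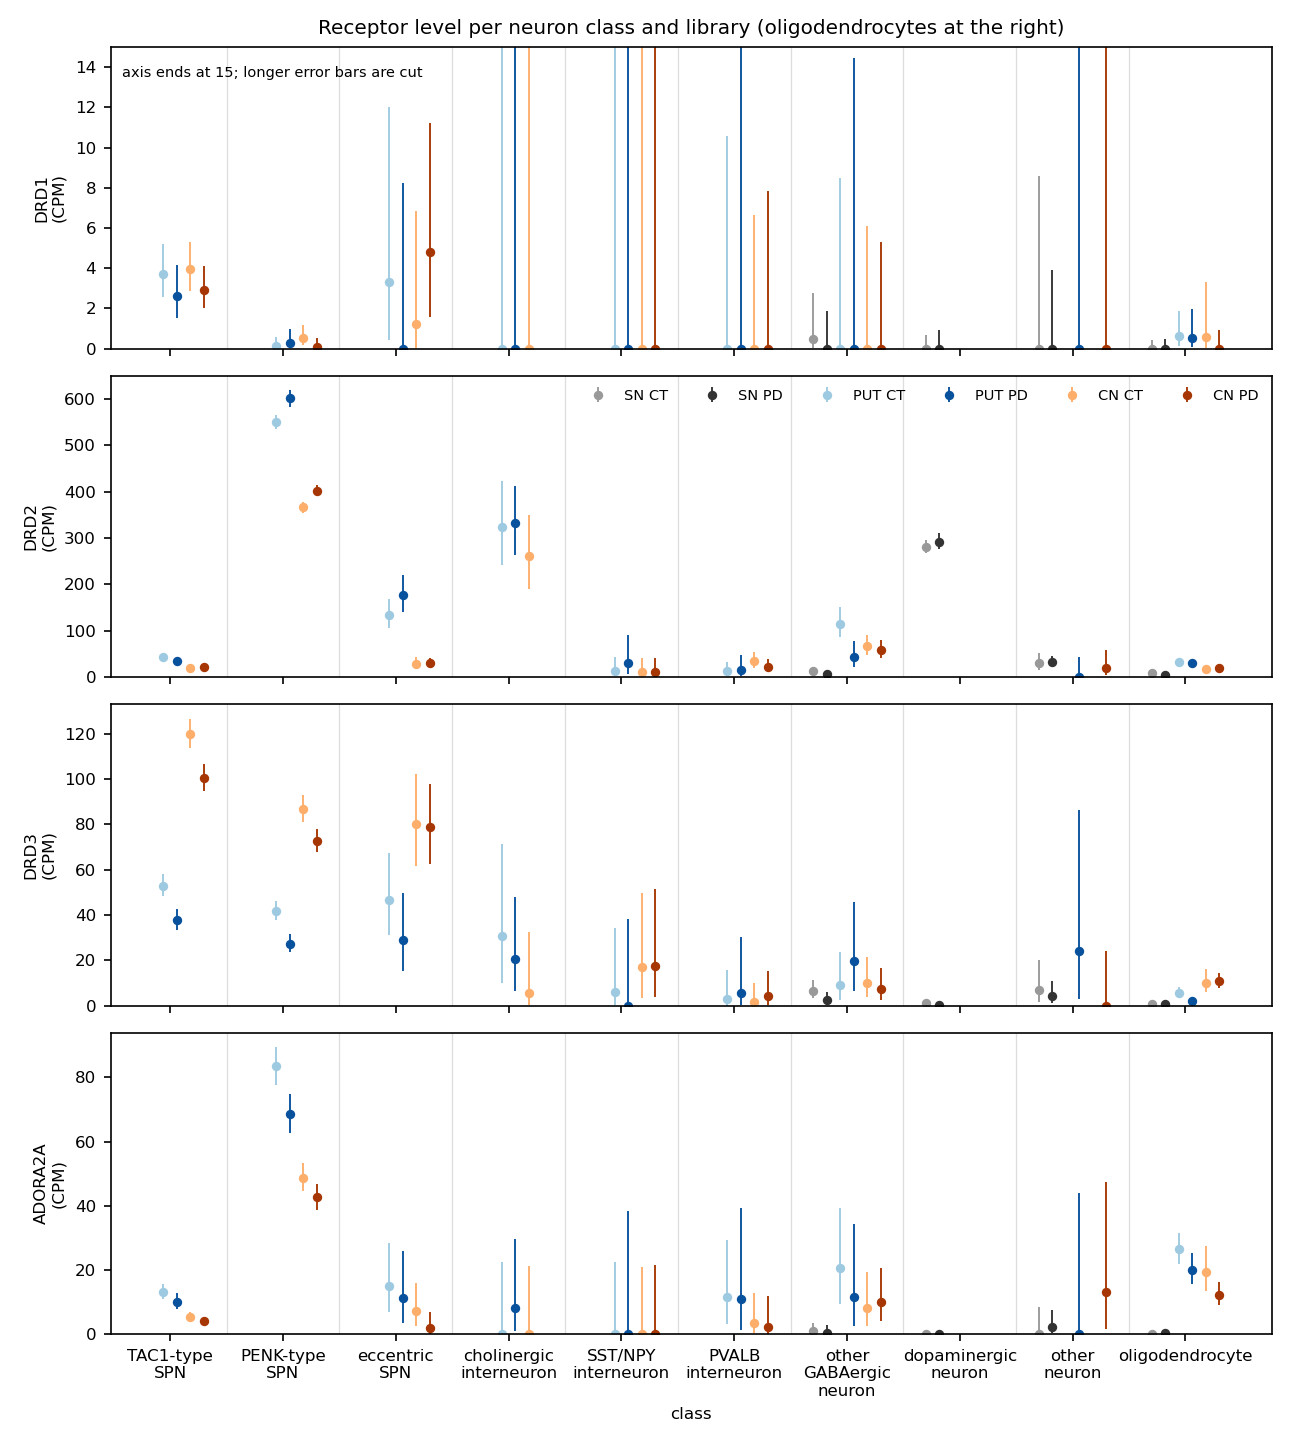
CPM (vertical axes, linear) of each receptor in each neuron class with at least 20 nuclei in a library, with oligodendrocytes at the right; points are single libraries and bars 95% Poisson intervals for counting error. DRD2 and ADORA2A are highest in PENK-type SPNs, DRD3 is higher in the CN than in the PUT libraries in all 3 SPN classes, and DRD1 stays at or below 4.80 CPM.

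DRD1, the receptor of the direct pathway, was found mainly in TAC1-type SPNs, from very few UMIs. It had 33 UMIs in 1713 TAC1-type nuclei of PUT CT, 17 in 1391 of PUT PD, 43 in 2461 of CN CT and 34 in 1980 of CN PD. These counts are 3.70, 2.60, 3.95 and 2.93 CPM. All 4 libraries lay close together and their intervals overlapped.

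The share of TAC1-type nuclei with a DRD1 UMI was 1.87% (1.28 to 2.63), 1.22% (0.714 to 1.95), 1.75% (1.27 to 2.35) and 1.72% (1.19 to 2.39) in the same order, with exact Clopper-Pearson intervals. In oligodendrocytes it was 0.0741%, 0.0366%, 0.0539% and 0. There 0 of 3324 nuclei was read as at most 3 nuclei, or 0.0903%, which is not a Clopper-Pearson bound. After thinning, 0.234%, 0.359%, 0.407% and 0.455% of TAC1-type nuclei held a DRD1 UMI. PENK-type SPNs held 1, 2, 5 and 1 DRD1 UMIs, a level of 0.106 to 0.510 CPM, with intervals that overlapped those of oligodendrocytes. Over its oligodendrocyte level, DRD1 in TAC1-type SPNs was 5.78-fold (1.81 to 29.4) in PUT CT, 4.73-fold (1.12 to 42.2) in PUT PD and 6.69-fold (1.14 to 270) in CN CT, each resting on 3 oligodendrocyte UMIs or fewer. DRD1 is therefore described by class sums. Whether the annotation holds the 3′ end of DRD1, which the 3′ chemistry reads, was not tested, so its low count is not read as low expression.

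Eccentric SPNs, a smaller SPN class known to differ from both pathway types, had 2, 0, 1 and 5 DRD1 UMIs in 126, 109, 213 and 200 nuclei. Their 3.33, 0, 1.23 and 4.80 CPM had intervals that overlapped those of TAC1-type SPNs. DRD1 had no UMI in the cholinergic, SST/NPY and PVALB interneurons, in the other GABAergic neurons of PUT and CN, or in dopaminergic neurons. For dopaminergic neurons, a count of 0, read as at most 3 counts, allows at most 0.564 CPM in SN CT and 0.761 in SN PD.

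DRD2 marked PENK-type SPNs, dopaminergic neurons and cholinergic interneurons. In PENK-type SPNs it stood at 550 (536 to 566), 602 (584 to 620), 366 (354 to 379) and 402 (390 to 414) CPM in PUT CT, PUT PD, CN CT, then CN PD, from 5176, 4359, 3595 and 4360 UMIs. The 2 putamen libraries lay above the 2 caudate libraries. A DRD2 UMI was found in 87.0%, 84.9%, 75.0% and 84.0% of PENK-type nuclei, against 3.58%, 4.06%, 1.51% and 2.14% of oligodendrocytes. At 1000 UMIs a nucleus the PENK-type shares were 41.1%, 43.2%, 30.2% and 31.9%, and those of oligodendrocytes 3.11%, 3.03%, 1.02% and 1.92%. CN CT had the lowest share unthinned, and it also had the lowest median depth of the 4.

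Single PENK-type nuclei were graded rather than divided. In PUT CT, 247 of 1900 held no DRD2 UMI, 382 held 1, 930 held 2 to 4 and 341 held 5 or more, with a highest count of 17. Nuclei with 5 or more numbered 284 in PUT PD, 97 in CN CT and 252 in CN PD. No oligodendrocyte held more than 3.

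**Figure D2:**
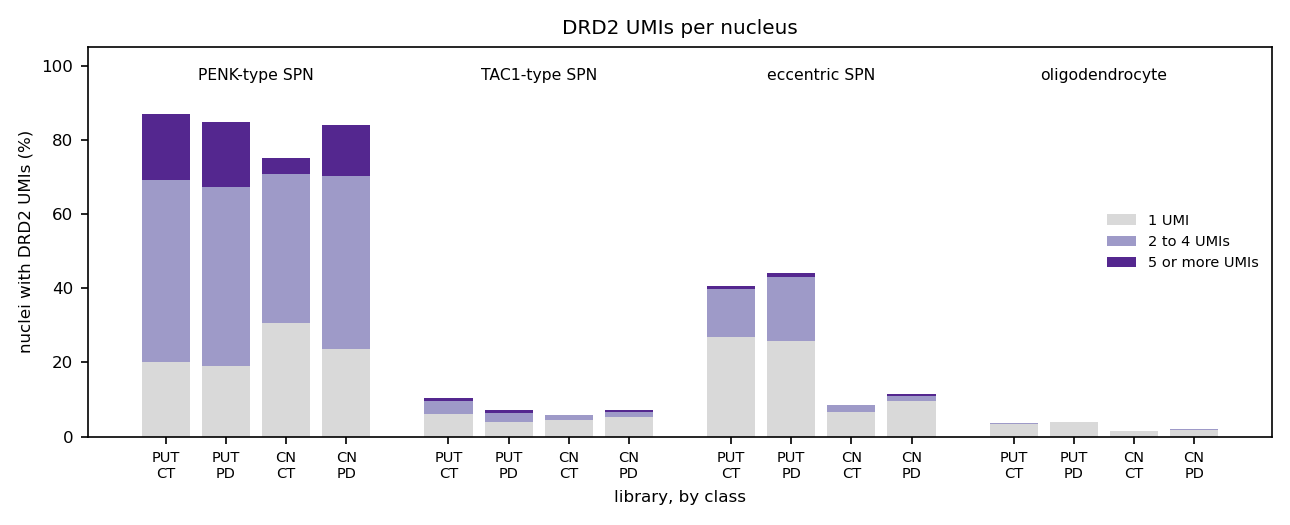
Percent of nuclei (vertical axis) with 1, 2 to 4, or 5 or more DRD2 UMIs in each library of PENK-type, TAC1-type and eccentric SPNs and oligodendrocytes. Between 75.0% and 87.0% of PENK-type nuclei hold DRD2, and eccentric SPNs hold it in 40.5% and 44.0% of PUT nuclei but in 8.45% and 11.5% of CN nuclei.

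Nigral dopaminergic neurons, where D2 acts as an autoreceptor, held DRD2 at 281 (267 to 296) CPM in SN CT and 293 (276 to 310) in SN PD. A DRD2 UMI was present in 88.3% of 358 CT nuclei and 90.4% of 270 PD nuclei, at median depths of 14261 and 14359 UMIs, and in 22.8% and 26.1% after thinning. Nigral oligodendrocytes had 7.88 and 5.46 CPM and shares of 1.07% and 0.677%, at median depths of 1156 and 1090. The 7 clustered units of dopaminergic neurons ranged only from 269 to 315 CPM, although most of them came mainly from 1 library. A unit is a sub-cluster of nuclei.

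Cholinergic interneurons, which are few but known to use D2, held DRD2 at 324 (242 to 423), 332 (264 to 413), 261 (190 to 349) and 264 (177 to 380) CPM in PUT CT, PUT PD, CN CT, then CN PD, from only 20, 28, 27 and 12 nuclei. The 4 intervals overlapped. SST/NPY interneurons held 2 or 3 DRD2 UMIs a library. PVALB interneurons held it at 14.3, 16.3, 34.2 and 21.2 CPM. Their ratio to oligodendrocytes was 2.07 (1.09 to 3.83) in CN CT, and in the other 3 libraries its interval held 1. Other GABAergic neurons of SN stood at 13.0 (8.50 to 19.1) in CT and 7.63 (4.27 to 12.6) in PD, with ratios to nigral oligodendrocytes of 1.65 (1.01 to 2.62) and 1.40 (0.721 to 2.57). In PUT CT, DRD2 thus ran from PENK-type SPNs through cholinergic interneurons to eccentric SPNs and other GABAergic neurons at 115 (85.6 to 152), whose intervals overlapped each other, and then to TAC1-type SPNs.

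TAC1-type SPNs held little DRD2. They stood at 42.7, 34.4, 19.4 and 20.9 CPM in PUT CT, PUT PD, CN CT, then CN PD, against 32.4, 31.4, 16.5 and 19.8 in oligodendrocytes of the same libraries. The ratio of the class to oligodendrocytes was 1.32 (1.09 to 1.60) in PUT CT, 1.10 (0.872 to 1.39) in PUT PD, 1.17 (0.788 to 1.81) in CN CT and 1.06 (0.819 to 1.38) in CN PD. Only the interval of PUT CT left out 1, and microglia, which were shallower still, stood at 48.7 (27.3 to 80.3) there. The thinned share in TAC1-type SPNs of PUT CT was 3.04%, and that of oligodendrocytes 3.11%. In the same TAC1-type nuclei ADORA2A stood at only 0.278 to 0.503 of its oligodendrocyte level, so this reference does not show whether their DRD2 is background.

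A small number of TAC1-type nuclei held many DRD2 UMIs. Nuclei with 5 or more DRD2 UMIs numbered 14, 11, 2 and 8, or 0.817%, 0.791%, 0.0813% and 0.404% of the class, and held 27.8%, 33.3%, 4.74% and 24.7% of its DRD2 UMIs. Without them, which lowers the level by construction, the class stood at 31.3, 23.3, 18.5 and 15.9 CPM. These nuclei had median depths of 7082, 5554, 9337 and 11430 UMIs, and EBF1 at 44.4, 36.7, 268 and 78.5 CPM, against 192, 176, 160 and 96.1 in the rest of the class. The part that joined nuclei or misplaced nuclei have in them was not tested.

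Eccentric SPNs differed in DRD2 between the regions more than either main SPN type. They had 135 (107 to 168) CPM in PUT CT and 176 (140 to 220) in PUT PD, but 28.3 (17.9 to 42.5) in CN CT and 29.8 (20.2 to 42.2) in CN PD. The PUT values were 4.16-fold (3.13 to 5.48) and 5.62-fold (4.16 to 7.55) above oligodendrocytes. In CN the ratios were 1.71 (0.942 to 3.08) and 1.503 (0.960 to 2.30), and their intervals held 1. After thinning, 11.9% and 18.5% of PUT and 1.88% and 1.51% of CN eccentric nuclei held DRD2.

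DRD3, known for the ventral striatum, was found in all 3 SPN classes. In TAC1-type SPNs it stood at 52.9 (48.3 to 57.9), 37.8 (33.2 to 42.8), 120 (114 to 127) and 101 (94.8 to 106) CPM in PUT CT, PUT PD, CN CT, then CN PD. PENK-type SPNs had 41.8 (37.8 to 46.1), 27.3 (23.7 to 31.4), 86.7 (81.0 to 92.7) and 72.8 (67.8 to 78.0). Both CN libraries lay above both PUT libraries in either class, and within each library the TAC1-type level was the higher and the intervals did not overlap.

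Oligodendrocytes held DRD3 at 5.55, 1.93, 10.0 and 10.9 CPM, so the TAC1-type level was 9.53-fold (6.42 to 14.7), 19.6-fold (9.38 to 49.3), 11.95-fold (7.44 to 20.6) and 9.23-fold (6.84 to 12.8) above them. A DRD3 UMI was found in 22.6%, 14.8%, 38.6% and 41.3% of TAC1-type nuclei and in 17.2%, 10.2%, 30.2% and 31.5% of PENK-type nuclei, against 0.617%, 0.220%, 0.863% and 1.26% of oligodendrocytes. Thinned, the TAC1-type shares were 5.31%, 3.09%, 11.5% and 9.04% and the PENK-type shares 4.002%, 2.49%, 8.48% and 7.16%. The unthinned share of TAC1-type nuclei was higher in CN PD than in CN CT, but the thinned share and the level were higher in CN CT, so no order is read from it.

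Eccentric SPNs had DRD3 at 46.6 (31.0 to 67.4), 29.0 (15.4 to 49.6), 80.0 (61.7 to 102) and 78.7 (62.6 to 97.7) CPM. In PUT their intervals overlapped those of both other SPN classes. Cholinergic interneurons held 5, 5, 1 and 4 DRD3 UMIs. Their 30.5 and 20.5 CPM in PUT CT and PUT PD were 5.50-fold (1.65 to 14.6) and 10.6-fold (2.66 to 38.9) above oligodendrocytes, while the ratio intervals of both CN libraries held 1. Other GABAergic neurons of PUT held 4 and 5 UMIs, with ratios of 1.66 (0.421 to 4.79) in CT and 10.2 (2.55 to 37.2) in PD. SST/NPY and PVALB interneurons held 0 to 3 DRD3 UMIs a library. Dopaminergic neurons, which D3 has also been linked to, held 6 UMIs in SN CT and 1 in SN PD, or 1.13 (0.414 to 2.45) and 0.254 (0.00642 to 1.41) CPM, with intervals that overlapped those of nigral oligodendrocytes at 0.766 and 0.762. Other GABAergic neurons of SN had 13 and 5 UMIs, 6.51 (3.46 to 11.1) and 2.54 (0.826 to 5.94) CPM, and the CT interval lay above that of oligodendrocytes (0.308 to 1.58). Of these UMIs, 12 of the 13 in CT lay in 1 unit with 51 CT nuclei, and the 44 PD nuclei of that unit held 1.

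One group of PENK-type units stood apart in DRD3. The genes leading 3 units, 238 nuclei in all, included RBM20 and NETO1, and these units were singled out after their values were seen. They held 2, 2, 3 and 2 DRD3 UMIs in 70, 54, 49 and 65 nuclei of PUT CT, PUT PD, CN CT, then CN PD. The levels were 4.38, 5.82, 12.1 and 4.93 CPM, against 43.7, 28.4, 88.7 and 75.4 in the other PENK-type nuclei, and the intervals did not overlap in any library. Over all 4 libraries the ratio was 0.0999 (0.0456 to 0.190).

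The other receptors of these units did not follow DRD3. Their DRD2 stood at 657, 643, 372 and 518 CPM against 545, 600, 366 and 398, a ratio of 1.22 (1.13 to 1.31) over all libraries. ADORA2A had a ratio of 1.04 (0.834 to 1.29), with 0.779 in PUT CT, 1.15 in PUT PD, 1.69 in CN CT and 0.745 in CN PD. TAC1 and PENK go against the class name: they were 6.91-fold (6.01 to 7.92) and 0.285-fold (0.206 to 0.384) of the other PENK-type nuclei. SP9 goes with it, at 2.58-fold (1.88 to 3.47). TAC1, at 228, 163, 202 and 143 CPM, lay above its level in TAC1-type SPNs in every library. PENK, at 32.8, 14.55, 64.7 and 17.25, lay below oligodendrocytes in every library and below TAC1-type SPNs in all but CN CT. These units are thus PENK-type by the naming rule only. Class values without these units kept their direction in all 12 PENK-type ratios given below.

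**Figure D3:**
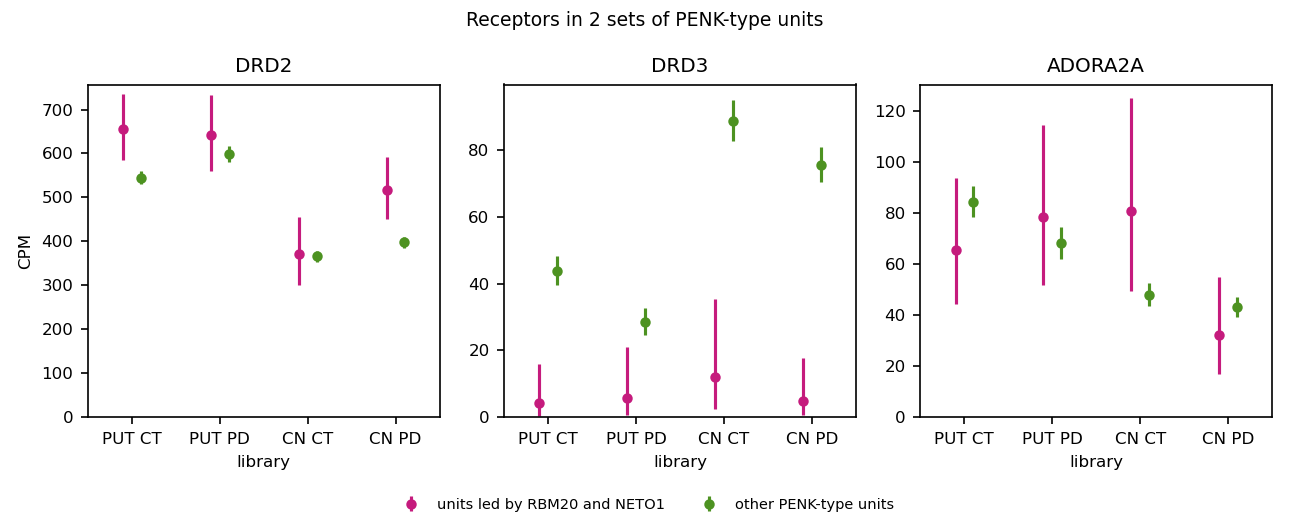
CPM (vertical axes, linear) of DRD2, DRD3 and ADORA2A in PENK-type units led by RBM20 and NETO1 and in the other PENK-type units of each library, with 95% Poisson intervals for counting error. DRD3 lies between 4.38 and 12.1 in the former and between 28.4 and 88.7 in the latter, while DRD2 is at least as high in the former and ADORA2A lies above the latter in PUT PD and CN CT only.

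ADORA2A, which opposes D2 in the indirect pathway, followed PENK-type SPNs. Its levels there were 83.4 (77.6 to 89.4), 68.6 (62.7 to 74.9), 48.8 (44.5 to 53.4) and 42.6 (38.8 to 46.7) CPM in PUT CT, PUT PD, CN CT, then CN PD. Both PUT libraries lay above both CN libraries. A UMI was present in 31.8%, 24.95%, 19.2% and 21.1% of PENK-type nuclei, and in 7.85%, 7.10%, 4.60% and 3.66% after thinning. Oligodendrocytes had shares of 2.96%, 2.60%, 1.78% and 1.38%, and thinned shares of 2.53%, 2.16%, 1.63% and 0.845%.

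In TAC1-type SPNs ADORA2A lay below the oligodendrocyte level in every library. It stood at 13.1, 10.1, 5.42 and 4.14 CPM, against 26.5, 20.1, 19.5 and 12.4 in oligodendrocytes, with ratios of 0.496 (0.382 to 0.643), 0.503 (0.355 to 0.711), 0.278 (0.179 to 0.440) and 0.335 (0.220 to 0.507). Whether those values are background was not tested. Eccentric SPNs had 9, 5, 6 and 2 ADORA2A UMIs and stood at 0.566, 0.555, 0.379 and 0.155 of the oligodendrocyte level. Cholinergic and SST/NPY interneurons held 0 to 2 UMIs a library, and dopaminergic neurons none, in SN CT or SN PD. Other GABAergic neurons of PUT stood at 20.7 (9.49 to 39.4) CPM in CT and 11.8 (2.43 to 34.4) in PD, intervals that overlapped those of oligodendrocytes.

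DRD2 and ADORA2A met in the same nucleus in 28.6% (26.6 to 30.7), 22.4% (20.3 to 24.5), 15.9% (14.4 to 17.5) and 18.5% (16.8 to 20.4) of PENK-type nuclei of PUT CT, PUT PD, CN CT, then CN PD. Among PENK-type nuclei with DRD2, 32.9%, 26.3%, 21.2% and 22.1% also held ADORA2A. Among those without DRD2 the shares were 24.7%, 17.3%, 13.4% and 16.0%. At 1000 UMIs a nucleus the first set was 7.31%, 5.91%, 5.18% and 3.25% and the second 8.22%, 8.01%, 4.35% and 3.86%, so the order seen unthinned held in CN CT alone. DRD1 and DRD2 met in 4, 0, 5 and 5 TAC1-type nuclei, among 32, 17, 43 and 34 nuclei with DRD1. In nuclei with DRD1, 12.5% (3.51 to 29.0) held DRD2 in PUT CT, 11.6% (3.89 to 25.1) in CN CT and 14.7% (4.95 to 31.1) in CN PD. Of the TAC1-type nuclei without DRD1, 10.3%, 5.87% and 7.04% did, and each lay within the interval of its pair. A joint UMI can also come from free RNA or from 2 nuclei in 1 droplet.

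The PD library differed little from the CT library in these receptors. DRD2 was slightly higher in PENK-type SPNs of both regions, and DRD3 and ADORA2A were lower. The ratio of PD to CT for DRD2 in PENK-type SPNs was 1.09 (1.05 to 1.14) in PUT and 1.10 (1.05 to 1.15) in CN.

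DRD3 was lower in the PD library in TAC1-type and PENK-type SPNs of both regions. In TAC1-type SPNs the ratio was 0.715 (0.610 to 0.835) in PUT and 0.838 (0.774 to 0.908) in CN. In PENK-type SPNs it was 0.654 (0.548 to 0.778) in PUT and 0.839 (0.761 to 0.926) in CN. The PENK-type ratio in PUT was the only one in SPNs to pass 1.5-fold with at least 50 UMIs. Among genes that reached 50 UMIs in the 2 libraries together, 1 of 3 members passed that fold in PENK-type SPNs of PUT, where 13.6% of all 11519 such genes did.

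In TAC1-type SPNs of PUT 0 of 4 members passed (14.0% of all genes), and in CN 0 of 4 in TAC1-type (16.7%) and 0 of 3 in PENK-type SPNs (17.7%). In eccentric SPNs 0 of 1 passed in PUT (14.6%) and 0 of 2 in CN (17.0%). These counts, from at most 4 members each, are too few to set against the share over all genes.

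ADORA2A in PENK-type SPNs had a PD to CT ratio of 0.823 (0.734 to 0.922) in PUT and 0.873 (0.767 to 0.994) in CN. DRD1 in TAC1-type SPNs had 0.703 (0.367 to 1.30) and 0.742 (0.459 to 1.19), both with intervals that held 1, so no difference was detectable at this depth; thinned to 1000 UMIs, the PUT ratio was 1.54 (0.331 to 7.76). In TAC1-type SPNs DRD2 had 0.806 (0.681 to 0.953) in PUT and 1.08 (0.895 to 1.31) in CN. Nuclei with 5 or more DRD2 UMIs held 27.8% of these UMIs in PUT CT and 33.3% in PUT PD. The intervals do not cover such unevenness between nuclei. ADORA2A in TAC1-type SPNs, below the level in oligodendrocytes, is not read between the groups. In eccentric SPNs, DRD2 had 1.31 (0.947 to 1.80) in PUT and 1.05 (0.593 to 1.89) in CN, and DRD3 0.622 (0.296 to 1.24) and 0.984 (0.702 to 1.38), all 4 holding 1. When each region was clustered on its own, the DRD2 ratio of eccentric SPNs in CN was 0.383 (0.112 to 1.05). In dopaminergic neurons DRD2 had 1.04 (0.963 to 1.12), and 0 of 1 member passed the fold where 13.8% of all genes did.

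**Figure D4:**
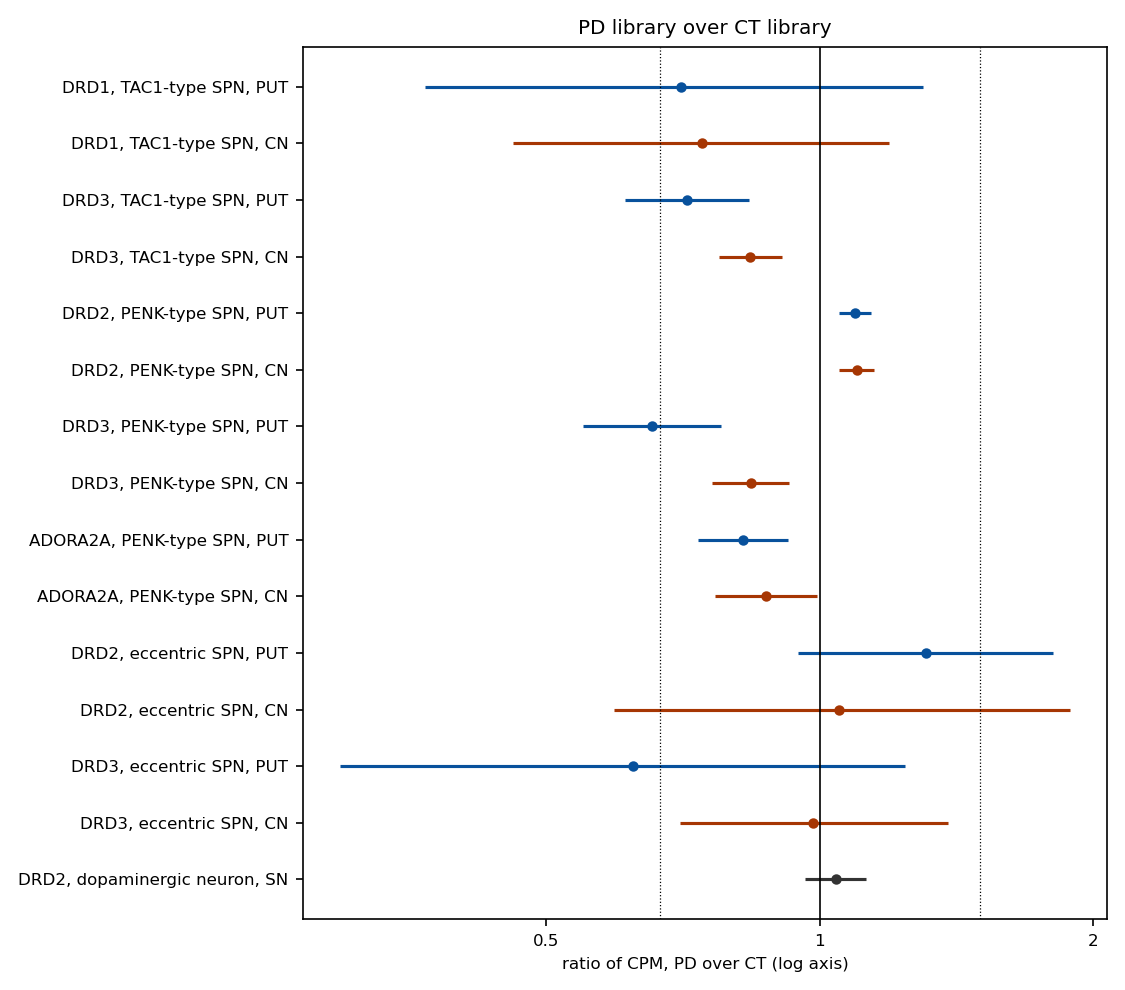
Ratio of CPM in the PD to the CT library (horizontal log axis) for each receptor and neuron class; points are ratios, bars 95% conditional binomial intervals for counting error, dotted lines 1.5-fold either way, and colours the regions (blue PUT, brown CN, black SN). DRD3 lies below 1 in TAC1-type and PENK-type SPNs of both regions, with 0.654 as the lowest of these, and DRD2 in PENK-type SPNs lies at 1.09 and 1.10.

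In CN the median gene itself was lower in PD, by a log2 ratio of -0.14 in TAC1-type and -0.15 in PENK-type SPNs, against -0.05 in PUT. Scaled to the median gene, the CN ratios were 0.917 (0.847 to 0.993) for DRD3 in TAC1-type SPNs, and 0.927 (0.841 to 1.02) for DRD3, 0.965 (0.847 to 1.10) for ADORA2A and 1.21 (1.16 to 1.27) for DRD2 in PENK-type SPNs. No receptor changed direction in the main SPN classes, but the intervals of DRD3 and ADORA2A in PENK-type SPNs of CN then held 1.

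Each SPN class drew its PD and CT nuclei mostly from different units. In PUT, u6.0 held 78.8% of the CT and u6.1 80.01% of the PD TAC1-type nuclei, and u5.0 held 78.0% of the CT and u5.1 66.4% of the PD PENK-type nuclei (the names are only unit numbers). In CN, u1.0 and u1.2 led TAC1-type, and u1.1 and u1.3 PENK-type nuclei. Eccentric SPNs were led by u15.2 (CT) and u15.3 (PD) in PUT and by u15.1 and u15.0 in CN, and dopaminergic neurons by u16.0 and u16.1. In the only PENK-type unit with at least 100 nuclei of both PUT libraries (281 CT and 162 PD), DRD3 stood at 34.7 and 34.1 CPM, a ratio of 0.985 (0.591 to 1.61). DRD2 there had 1.06 (0.947 to 1.19) and ADORA2A 0.855 (0.622 to 1.16). In the TAC1-type unit of that kind (179 and 119 nuclei), DRD3 had 0.576 (0.338 to 0.947).

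A smaller TAC1-type unit of PUT, u5.4, held 96 CT and 104 PD nuclei with DRD2 at 155 and 73.1 CPM, a ratio of 0.471 (0.309 to 0.705). Its level lay above the rest of its class in both libraries, and it came from the same cluster as the PENK-type units of PUT. Over the whole class DRD2 stood at 42.7 and 34.4.

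In other GABAergic neurons of PUT DRD2 was also lower in PD, at 43.1 (21.5 to 77.2) against 115 CPM, with 11 and 50 UMIs in 87 and 116 nuclei and a ratio of 0.374 (0.176 to 0.728). Here 1 of 1 member passed 1.5-fold, where 13.0% of all genes did. The class in CN stood at 67.7 (CT) and 58.9 (PD), a ratio of 0.869 (0.550 to 1.37). Oligodendrocyte markers in it summed to 957 and 815 CPM in PUT CT and PUT PD, and the 11 SPN markers, 10 of them detected in each, to 2695 and 1831. PPP1R1B, the DARPP-32 gene and an SPN marker, had 32 and 4 UMIs, or 73.8 and 15.7 CPM. The class joined several kinds of unit, led in PUT CT by u19.0 (54 nuclei) and in PUT PD by u19.1 (31 nuclei). The part these have in the difference was not tested.

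RNA of oligodendrocytes also moved with the groups. All 6 oligodendrocyte markers were detected in every class compared. Their sum in TAC1-type SPNs was 620 and 538 CPM in PUT CT and PUT PD, and 484 and 327 in CN CT and CN PD. In PENK-type SPNs it was 585, 549, 437 and 313, in eccentric SPNs 579, 442, 428 and 274, and in dopaminergic neurons 594 and 497. It was lower in PD in each of these pairs, and its part in the receptor ratios was not tested.

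DRD3 was higher in the CN than in the PUT libraries in all 3 SPN classes. In the CT libraries, CN over PUT gave ratios for DRD3 of 2.27 (2.04 to 2.52) in TAC1-type, 2.07 (1.84 to 2.34) in PENK-type and 1.72 (1.09 to 2.78) in eccentric SPNs. In the PD libraries they were 2.66 (2.32 to 3.06), 2.66 (2.28 to 3.13) and 2.71 (1.502 to 5.31). The CN library was the higher in all 6 pairs. In eccentric SPNs this rests on few UMIs: thinned, the ratios there were 0.930 (0.329 to 2.83) in CT and 1.49 in PD.

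DRD2 and ADORA2A ran the other way. In PENK-type SPNs DRD2 had a CN to PUT ratio of 0.665 (0.638 to 0.695) in CT and 0.668 (0.641 to 0.697) in PD, and ADORA2A 0.585 (0.521 to 0.657) and 0.621 (0.546 to 0.706). In eccentric SPNs DRD2 had 0.210 (0.126 to 0.337) and 0.169 (0.108 to 0.259). DRD1 in TAC1-type SPNs had 1.07 (0.662 to 1.73) and 1.13 (0.612 to 2.15), both holding 1 (1.74 in CT after thinning). Clustering each region on its own gave 0.0541 for DRD2 in eccentric SPNs in PD, and thinning 0.0678.

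Past 1.5-fold between the CT libraries were 3 of 4 members in TAC1-type (12.1% of all genes), 3 of 3 in PENK-type (11.1%) and 2 of 2 in eccentric SPNs (15.6%). Between the PD libraries they were 3 of 4 (14.9%), 2 of 3 (14.2%) and 2 of 2 (16.4%). Of the 3 in TAC1-type SPNs, DRD3 had a ratio over oligodendrocytes whose interval lay above 1 in all 4 libraries, DRD2 in PUT CT alone and ADORA2A in none. DRD2 and ADORA2A in TAC1-type SPNs were 0.454 and 0.413 in CT and 0.608 and 0.410 in PD. The same ratio in oligodendrocytes ran the same way, at 32.4 against 16.5 CPM for DRD2 in CT. The DRD2 ratios of PENK-type SPNs lie close to the fold itself, at 0.665 inside and 0.668 outside it. The median gene differed by a log2 ratio of -0.10 between the PD libraries in PENK-type SPNs, and scaled to it the DRD2 ratio was 0.720 (0.690 to 0.751) and that of ADORA2A 0.669 (0.588 to 0.761), past neither fold.

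**Figure D5:**
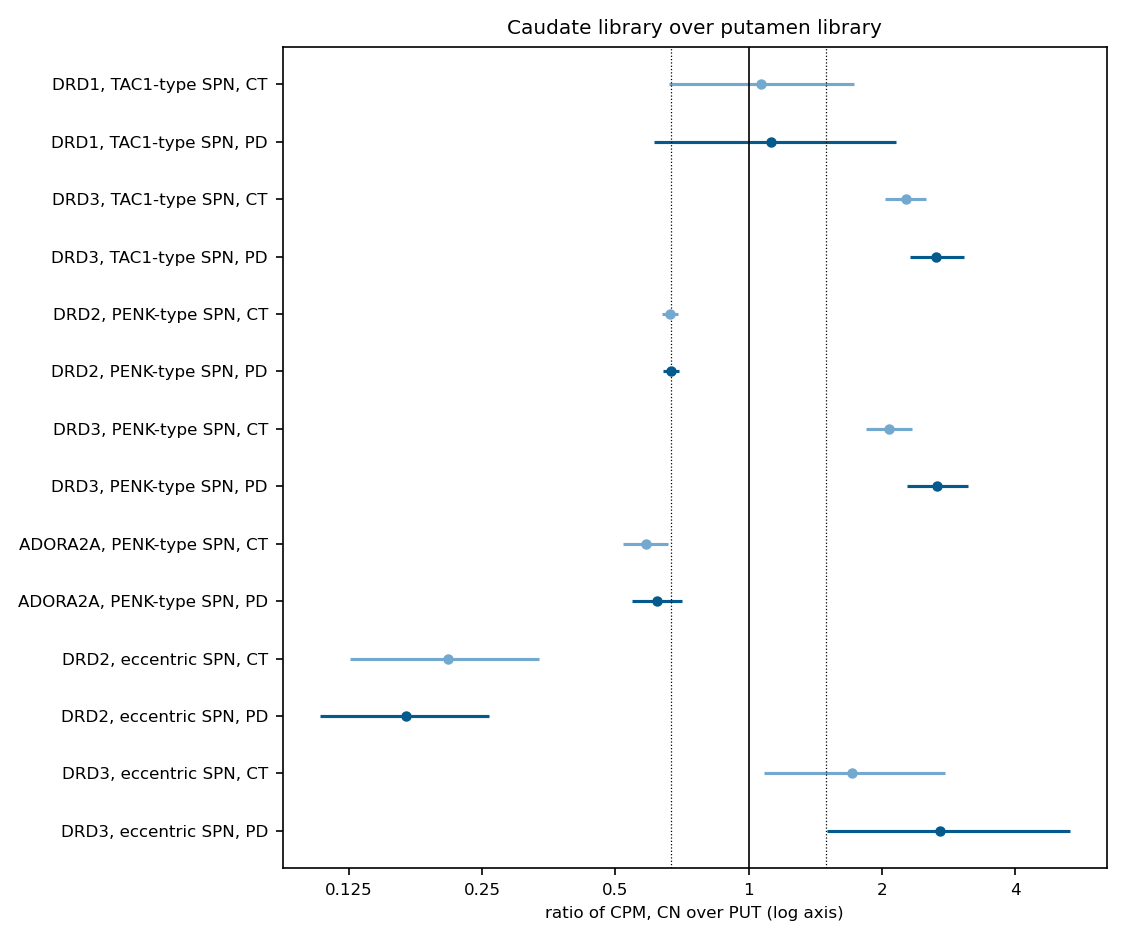
Ratio of CPM in the CN to the PUT library (horizontal log axis) for each receptor and SPN class in CT (light) and PD (dark) libraries, with 95% conditional binomial intervals for counting error and dotted lines at 1.5-fold either way. DRD3 lies between 1.72 and 2.71 in all 3 classes, DRD2 between 0.665 and 0.668 in PENK-type and at 0.210 and 0.169 in eccentric SPNs.

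Among the genes of the same pathway, 57 were listed: the other dopamine and adenosine receptors, G protein subunits, the cyclase, phosphodiesterases and kinase, phosphatase inhibitors, receptor regulators and partner receptors. In TAC1-type SPNs of PUT 2 of 46 measured genes were at least 1.5-fold higher in PD and 4 lower, and in PENK-type SPNs also 2 and 4. In CN 0 were higher and 5 lower of 46 in TAC1-type, and 1 and 5 in PENK-type SPNs. In eccentric SPNs 1 was higher and 1 lower of 27 in PUT, and 2 and 4 of 35 in CN. In dopaminergic neurons 4 were higher and 2 lower of 42. The share past the fold was 13.0% in both main SPN types of PUT, 10.9% and 13.0% in those of CN and 14.3% in dopaminergic neurons, beside 14.0%, 13.6%, 16.7%, 17.7% and 13.8% of all genes. In eccentric SPNs the share was 7.41% in PUT and 17.1% in CN, beside 14.6% and 17.0% of all genes. The list's median log2 ratio was 0.03 and 0.01 in TAC1-type and PENK-type SPNs of PUT, beside -0.05 and -0.05 over all genes. In those of CN it was -0.04 and -0.05, beside -0.14 and -0.15 over all genes. In dopaminergic neurons it was 0.04, beside 0.03.

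PDE1C, a calcium dependent phosphodiesterase that degrades cyclic nucleotides, was past the fold and higher in PD in 5 of the 8 pairs of class and region in which it was measured. The other 3 were TAC1-type SPNs of CN at 28.5 and 32.2 CPM and other GABAergic neurons of SN at 16.0 and 20.4 and of CN at 925 and 1261. It stood at 15.8 and 44.9 CPM in CT and PD dopaminergic neurons, a ratio of 2.85 (2.18 to 3.73). In PENK-type SPNs it stood at 4.57 and 9.25 in PUT and 17.8 and 39.5 in CN, in TAC1-type SPNs of PUT at 5.61 and 9.49, and in eccentric SPNs of CN at 84.9 and 151. ADORA2B, the low affinity A2B adenosine receptor, stood at 6.28 and 14.1 in TAC1-type SPNs of PUT, a ratio of 2.24 (1.59 to 3.19).

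RGS4, which shortens signalling by inhibitory G proteins, was lower in PD in both main SPN types of both regions and higher in dopaminergic neurons. It stood at 31.7 and 15.6 CPM in TAC1-type and 31.3 and 14.9 in PENK-type SPNs of PUT, at 24.9 and 14.4 in PENK-type SPNs of CN, at 22.6 and 15.1 in TAC1-type SPNs of CN, just inside the fold, and at 6.39 and 17.5 in dopaminergic neurons, where the ratio was 2.74 (1.79 to 4.26). CALY, which encodes calcyon, a protein of endocytosis first linked to D1, stood at 34.5 and 19.0 in TAC1-type and 32.2 and 19.5 in PENK-type SPNs of PUT, at 32.6 and 20.4 and 30.8 and 18.9 in those of CN, and at 51.7 and 26.9 in eccentric SPNs of CN, but at 11.1 and 18.8 in dopaminergic neurons. Whether the differences themselves differ between classes was not tested.

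PPP1CA, the catalytic subunit of the phosphatase that phosphorylated DARPP-32 inhibits, was lower in PD and past the fold in 5 of the 6 pairs of class and region in which it was measured. It stood at 27.7 and 12.6 CPM in TAC1-type SPNs of CN, 27.6 and 13.5 in PENK-type SPNs of CN, 23.3 and 13.9 in PENK-type SPNs of PUT, 32.5 and 14.8 in other GABAergic neurons of SN and 36.6 and 14.7 in dopaminergic neurons, with a ratio of 0.402 (0.294 to 0.541) in the last. In TAC1-type SPNs of PUT it stood at 23.5 and 17.6. Also lower were GNAS, the stimulatory G protein subunit, at 14.4 and 8.57 in TAC1-type SPNs of PUT, ARRB2, an arrestin that ends receptor signalling, at 14.0 and 7.67 in TAC1-type SPNs of CN, and GNG7, a G protein γ subunit, at 8.27 and 4.06 in dopaminergic neurons. GNAS was past the fold and lower in 3 of the 9 pairs in which it was measured, ARRB2 in 2 of 6 and GNG7 in 1 of 7. The G protein subunit that couples D1 and A2A in the striatum, GNAL, was not past the fold: it stood at 941 and 1094 in PENK-type SPNs of PUT.

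In eccentric SPNs of CN, RGS7, a regulator of inhibitory G proteins, stood at 432 and 886 CPM, a ratio of 2.05 (1.81 to 2.33), and the phosphatase regulator ARPP19 at 128 and 56.6 and the phosphodiesterase PDE1B at 473 and 294. In those of PUT, the arrestin ARRB1 stood at 76.6 and 132 and the phosphodiesterase PDE4B at 726 and 471. Few of these genes were of high count, and RGS4 had 283 and 102 UMIs in TAC1-type SPNs of PUT.

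The remaining dopamine receptors were close to absent from these nuclei. DRD4, a D2-like receptor, had 11 and 3 UMIs in dopaminergic neurons of SN CT and SN PD and 7, 0, 5 and 0 in PENK-type SPNs of PUT CT, PUT PD, CN CT, then CN PD. In dopaminergic neurons these were 2.07 and 0.761 CPM, against 1.20 and 0.381 in nigral oligodendrocytes and 11.2 (4.83 to 22.0) in SN CT microglia. DRD5, a D1-like receptor, had 1 UMI in the neuron classes, in a cholinergic interneuron of PUT PD.

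Across the 26 combinations of neuron class and library with at least 50 nuclei, the genes whose log2 level (CPM plus 1) ran most like each receptor were sought among 9811 genes. DRD3 ran with ANO3 (Pearson's r 0.94), ELMOD1 (0.94) and C15orf41 (0.93), of which ANO3 was itself among the SPN markers. ADORA2A ran with RASD2 (0.86), FAM214A (0.85) and BMP1 (0.83), and DRD2 with RABGAP1L (0.75), NECAB1 (0.71) and SV2C (0.66). DRD1 ran with GPM6B (0.70), DGKZ (0.69) and DRD3 (0.68), on 145 UMIs in all. Among the members themselves, DRD2 and ADORA2A had an r of 0.57, DRD3 and ADORA2A 0.55 and DRD1 and DRD2 -0.19. The combinations share libraries and differ in depth, and these values are descriptions.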

How the data were processed

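Nuclei were prepared with a kit and captured with 10x 3′ chemistry, per the labels' protocols. The deposited matrices hold raw UMI counts, which the authors made with Cell Ranger 7.0.1, per the file headers. The identifiers are of Macaca fascicularis genes, although hg38 stands in the submitters' processing notes and Macaca mulatta in the extract protocol, and the annotation release is not given in the sources used here. Of the 22316 genes 16297 had a symbol.

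Barcodes were left out when they had under 500 genes, over 5% mitochondrial UMIs or a Scrublet score over 0.25 (scanpy 1.11.5, expected rate 0.06). The last rule removed 1.86% to 6.01% of a library's barcodes as doublets. Free RNA was not corrected. Counts scaled to 10000 per nucleus were log transformed, and all libraries were clustered together by the Leiden method (leidenalg 0.10.2, resolution 1.0) on 15 neighbours in 30 principal components of 2000 variable genes, the 4 receptors left out. Any cluster that reached 60 nuclei was divided further (resolution 0.5 on 1000 variable genes), which gave 133 units, 55 of them neuronal.

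Units were named from fixed marker lists without the receptors, GPR6 and GPR52 not being in the annotation. A class with a unit whose leading genes held more markers of another class (other neurons) was left out of comparisons, as were 3497 nuclei of mixed and 843 of unnamed units. Naming thresholds were set after the units were seen. The eccentric minimum (0.5) and the rule for other GABAergic neurons (0.2) were changed again because class sizes moved under the alternatives. The members and lists were chosen with earlier results of these data known.

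Levels are summed UMIs per 1000000 UMIs of a class in a library (CPM), with exact Poisson intervals. Shares have Clopper-Pearson and ratios exact conditional binomial intervals. A count of 0 is read as at most 3 counts. Genes named from the pathway list were those past 1.5-fold whose interval left out 1, at most 3 per direction and class, for classes with at least 100 nuclei in both libraries; GNAL and the RBM20-led units are exceptions chosen after their values were seen. Likeness was ranked among genes with at least 500 UMIs. The interval steps were tested on simulated counts. In a RefSeq annotation of another assembly no other gene overlapped any of the 4 members. Alternatives covered filters, doublets, scaling, weighting, depth, clustering and markers.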

Additional observations from a re-analysis of the deposited data

How the results depend on the processing

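No paired analysis was possible because the matrices pool the samples of a region and treatment and carry no replicate numbers, and for the same reason no replicate could be left out. Of 324 values recomputed for the main results under the alternatives, 284 stayed within the main interval or, for counts, within 1.5 times. A change of direction was counted only where the main interval left out 1. Within intervals that held 1, some ratios crossed 1. PD to CT of DRD1 in TAC1-type SPNs of CN, 0.742 in the main setting, reached 1.12. For the values that did not stay, the cause was not tested. The filters of 200 and 1000 genes, no doublet removal, per-nucleus weighting and receptors among the markers moved none of the main results. Naming rules for eccentric SPNs and other GABAergic neurons had been changed because class sizes moved under the alternatives. Agreement under the filters or without doublet removal is therefore not an independent check of those classes. Receptors among the markers could rename only whole units, without new clustering, and all 52685 nuclei kept their class. The 29 values of that alternative thus equal the main ones by construction and count among the 284.

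Clustering each region separately gave PD to CT 0.383 for DRD2 in eccentric SPNs of CN, and CN to PUT in PD 0.625 for DRD2 in PENK-type and 0.0541 in eccentric SPNs. Median-ratio scaling gave PD to CT in CN 0.917 (DRD3, TAC1-type), 1.21 (DRD2, PENK-type) and 0.927 (DRD3, PENK-type), and CN to PUT in PD 0.720 (DRD2, PENK-type). Thinning to 1000 UMIs, which leaves few UMIs, turned DRD3 in eccentric SPNs, CN to PUT in CT, to 0.930 (0.329 to 2.83). It gave 1.49 for the same in PD, 0.0678 for DRD2 there, 3.10 for DRD3 in TAC1-type SPNs in PD, 1.54 and 0.570 for PD to CT of DRD1 and DRD3 in TAC1-type SPNs of PUT, and 1.74 for DRD1, CN to PUT in CT. Its interval for DRD1 in PUT was 0.331 to 7.76.

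Co-detection of DRD2 and ADORA2A in PENK-type nuclei of PUT CT, PUT PD, CN CT, then CN PD was 3.00%, 2.55%, 1.56% and 1.04% thinned, and 5.79%, 3.60%, 1.11% and 2.90% with at least 2 UMIs of each. That of DRD1 and DRD2 in TAC1-type nuclei of PUT CT, CN CT, then CN PD was 0 under both. Pathway genes past 2-fold numbered 2 and 2 in TAC1-type and PENK-type SPNs of PUT, 1 and 2 in those of CN and 3 in dopaminergic neurons. With at least 200 UMIs, 2 passed 1.5-fold in TAC1-type SPNs of PUT and 3 in dopaminergic neurons. Thinned, 3 passed in PENK-type SPNs of PUT and 0 in dopaminergic neurons, where fewer genes reach 50 UMIs. The share of all genes past the fold was not computed under these alternatives, so nothing is read from these pathway counts.

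Alternatives chosen after seeing the data were PENK-type SPNs without the RBM20-led units, which kept all 12 ratios, and only units with at least 100 nuclei of both PUT libraries. The latter gave PD to CT 0.985 for DRD3 in PENK-type SPNs, 0.576 for DRD3 in TAC1-type SPNs, and 0 for DRD1 there, from 1 UMI in CT and 0 in PD.

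Few UMIs or nuclei limit DRD1 (177 UMIs), eccentric SPNs and interneurons, and for DRD1 the annotation's cover of its 3′ end was not tested. Every difference rests on 1 library a group.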
